A study of Bos taurus with 12 samples.

Results

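The circadian clock genes examined here were PER1, PER2, PER3, CRY1, CRY2, CLOCK, ARNTL (also called BMAL1), NR1D1, NR1D2 and DBP. The rule takes them by name, through the RefSeq accession of each array probe, and uses no measured value, although the list itself was drawn up with earlier results of these data known. Of the 10 genes, 9 were matched by at least 1 probe, with 21 probes among the 43653 non-control probes of the array. PER3 was matched by no probe and was not analysed here. Mammary gland (MG) biopsies came from 12 multiparous Holstein cows in early lactation, about 24 days in milk when the diets began, with 6 cows fed the control lactation diet (CONT) and 6 cows fed a restricted ration (REST). The REST ration was diluted with barley straw, which made up 48% of its dry matter, and was given for 4 days. All 12 cows, CONT included, received 50 µg of lipopolysaccharide (LPS, the endotoxin of Gram-negative bacteria) in 1 healthy rear gland of the udder on day 3 of the diets, and a biopsy was taken 24 h later. No MG tissue from cows without LPS was analysed here, and the comparison is of diets among challenged cows. The study treats the biopsies as challenged MG, although its methods do not name the gland sampled. The methods place the LPS infusion after a morning milking and the biopsy 24 h after the infusion, but the hour of each biopsy is not given in the sources used here.

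The circadian clock is a feedback loop of transcription factors that runs in nearly every cell. CLOCK and ARNTL form a dimer that switches on the PER and CRY genes, whose proteins return to the nucleus and block the dimer, while NR1D1 and NR1D2 (REV-ERBα and REV-ERBβ) repress ARNTL and DBP carries the rhythm to output genes. In liver and MG the loop is known to respond to feeding time and to glucocorticoids, and it takes part in the daily rhythm of metabolism and milk synthesis.

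RNA from each cow was hybridized to 1 one-color Agilent array. A value in this text is the log2 of a probe's signal minus the 75th percentile of its own array, so that 0 is the level of that percentile and a difference of 1 is a 2-fold change. Values of different probes were not compared with each other, because probes differ in how brightly they hybridize. The summed levels of marker lists given below are an exception, and they weight each gene by the brightness of its probe. The 75th percentile was 577.1 to 1184 in CONT and 386.9 to 1082 in REST, in units of scanner intensity, and 57.6 to 78.2% of the spots were well above background on an array. The 12 arrays lay on 3 slides of 4 arrays, with 3 CONT and 1 REST on slide 1, 1 CONT and 3 REST on slide 2, and 2 of each on slide 3. Slide 1 had brighter negative control spots (37.73 to 58.19) than the other slides (17.43 to 19.96). In the list of mammary epithelial markers, 7 of 8 genes were matched, and all 7, among them the milk protein genes CSN1S1, CSN3 and LALBA, were well above background on the 12 arrays.

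No clock gene passed the test of REST against CONT. The limma test with Westfall-Young adjustment over all probes gave an adjusted p of 1 for each of the 21 clock probes, and the Benjamini-Hochberg adjusted p was 0.9999. Over the whole array the same test called 0 of 43653 probes (0%), and Benjamini-Hochberg also called 0 (0%). The study itself reported differentially expressed genes from these arrays, by a moderated test with Westfall-Young correction in other software. No clock gene is among the known genes it lists, and the reason for the unlike counts was not tested. Without adjustment, 1143 probes (2.62%) had a p under 0.05. Among the clock genes, 3 of the 21 probes did, and all 3 were probes of PER1. When the brightest probe stood for each gene, 1 of 9 clock genes had an unadjusted p under 0.05, against 334 of 12639 named genes (2.64%). The mean was higher in REST for 6 clock genes and lower for 3, where 43.5% of the named genes were higher. The median log2 fold change was 0.25 for the 9 clock genes and -0.03 for the named genes. The values of the groups overlapped for every clock gene, as they did for all but 0.15% of the named genes. The 12 biopsies were bulk tissue, in which fewer cells of a type and less RNA per cell cannot be told apart.

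**Figure D1:**
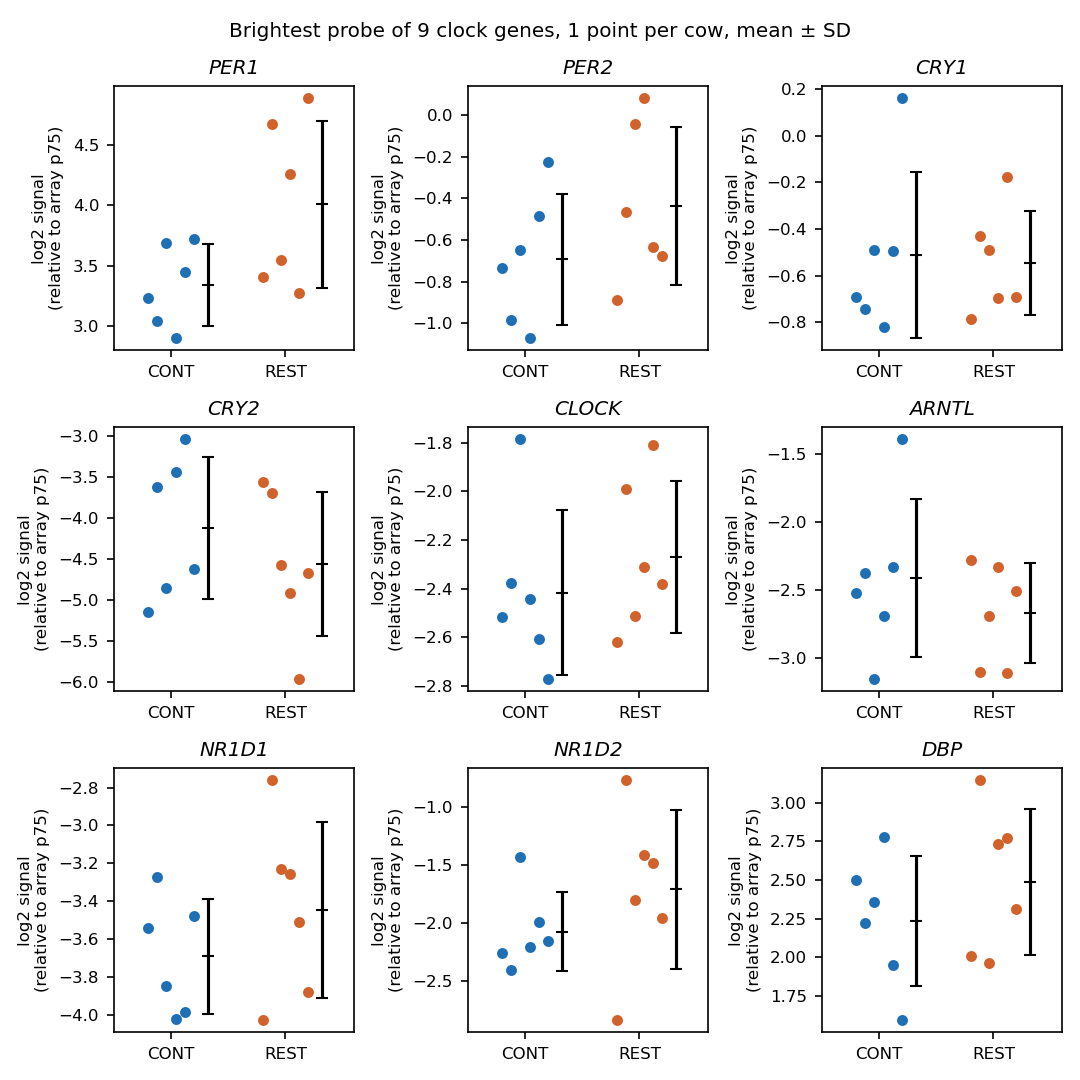
Log2 signal relative to the 75th percentile (p75) of the array for the brightest probe of each of 9 clock genes, with 1 point per cow and bars for the mean and SD of 6 cows. CONT and REST overlap in every panel, and 3 REST cows lie above all CONT cows for PER1.

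PER1, a repressor of the loop that also responds rapidly to glucocorticoids and stress, had the largest fold change of the 9 genes. Its brightest probe (A_73_109217) read 3.23, 3.04, 3.69, 2.90, 3.45 and 3.72 in CONT cows 9040, 1076, 0015, 1024, 0055 and 8027. It read 3.40, 4.67, 3.55, 4.25, 3.27 and 4.88 in REST cows 0078, 0049, 1018, 7043, 1015 and 1058. REST cows 0049, 7043 and 1058 were above every CONT cow, and the other 3 REST cows lay within the CONT range. CONT cows averaged 3.34 ± 0.34 (SD, n = 6), and REST cows averaged 4.01 ± 0.69 (SD, n = 6). The log2 fold change was 0.67 (SE 0.30, 95% interval 0.02 to 1.32), or 1.59-fold, with an unadjusted limma p of 0.045. The exact permutation test over all 924 assignments of the cows gave p = 0.0671, where 0.00216 is the smallest p it allows. For this probe the difference passed 0.05 in only 1 of the 2 unadjusted tests.

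PER1 was read by 5 probes, which were all well above background in every cow. The log2 fold changes of the other probes were 0.60 (SE 0.24) for A_73_P065311, 0.60 (SE 0.26) for A_73_P321081, 0.49 (SE 0.25) for A_73_P269921 and 0.15 (SE 0.29) for A_73_P347211. Their unadjusted limma p-values were 0.026, 0.0407, 0.0719 and 0.608, and the exact permutation p-values were 0.0368, 0.0628, 0.0996 and 0.634. A_73_P065311 was thus the PER1 probe that passed 0.05 in both unadjusted tests. With the mean over the 5 probes the PER1 difference was 0.50, with an unadjusted limma p of 0.0429. On the first 4 PER1 probes REST cows 0049, 7043 and 1058 again exceeded every CONT cow, and these probes followed each other over the cows with r of 0.86 to 0.97. The fifth, A_73_P347211, had r of 0.10 to 0.38 with the others, and its highest value was that of CONT cow 1024 (-2.14). Probes of one gene read the same RNA and are not replicates.

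**Figure D2:**
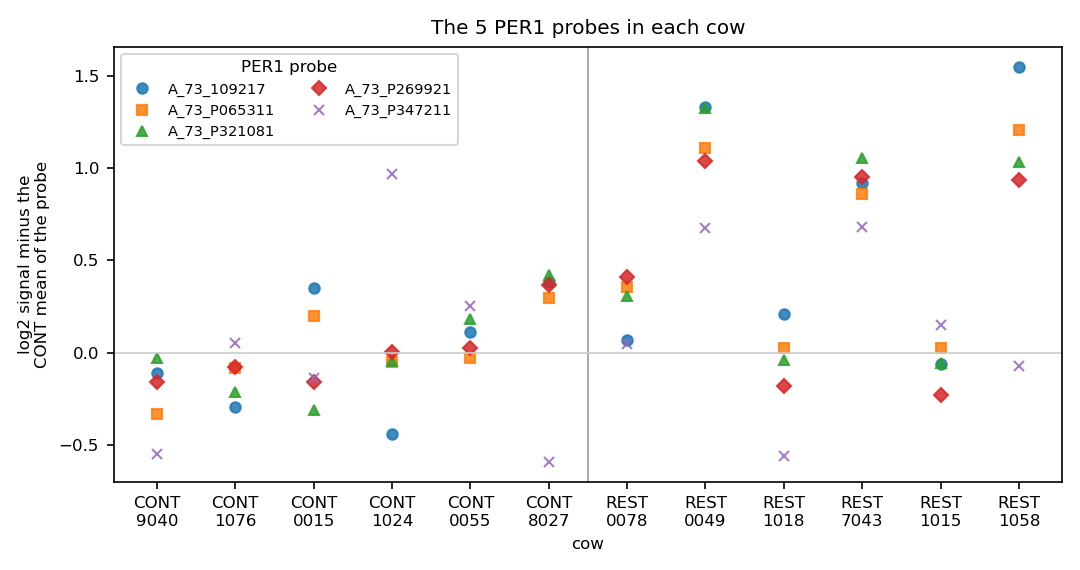
Log2 signal of each of the 5 PER1 probes in the 12 cows, as the difference from the CONT mean of the same probe. In 4 probes, REST cows 0049, 7043 and 1058 lie 0.86 to 1.55 above the CONT mean, while A_73_P347211 (crosses) is at 0.97 in CONT cow 1024.

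On its brightest probe the PER1 difference was 0.27 on slide 1, which held 1 REST cow, 0.84 on slide 2, which held 1 CONT cow, and 0.51 on slide 3. On probe A_73_P347211 it was -0.38, 1.05 and 0.05 on slides 1, 2 and 3, so that a shared direction did not hold for this probe. For the brightest probe the difference with slide as a block was 0.54, with an unadjusted limma p of 0.112, and with the 75th percentile of the array as a covariate it was also 0.54, with an unadjusted limma p of 0.138. Leaving out 1 cow at a time moved the difference of the brightest probe between 0.49 and 0.81, and the unadjusted p was no longer under 0.05 without CONT cow 9040, 1076, 1024 or 0055, or without REST cow 0049, 7043 or 1058.

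PER2, the partner of PER1 in the repressing complex, had a log2 fold change of 0.26 (SE 0.21, 95% interval -0.20 to 0.71; exact permutation p = 0.225). Its brightest probe ranged from -1.07 to -0.23 in CONT (median -0.69) and from -0.89 to 0.08 in REST (median -0.55). REST cows 7043 and 1018 were the highest of all 12. The other PER2 probes were well above background on 5 and 2 arrays, with log2 fold changes of -0.12 (SE 0.49) and 0.16 (SE 0.44).

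CRY1 and CRY2 encode the cryptochromes, which bind the PER proteins and silence CLOCK and ARNTL. CRY1 ranged from -0.82 to 0.16 in CONT (median -0.59) and from -0.78 to -0.18 in REST (median -0.59). The medians lay together, and CONT cow 8027 stood 0.65 above the next CONT cow. The log2 fold change was -0.03 (SE 0.19, 95% interval -0.44 to 0.37; exact permutation p = 0.896), so that a change larger than these bounds in either direction is outside the interval. The second CRY1 probe gave -0.11 (SE 0.17), also with all arrays well above background.

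CRY2 was dim, being well above background in 3 CONT and 3 REST cows. It ranged from -5.15 to -3.04 in CONT (median -4.13) and from -5.97 to -3.56 in REST (median -4.62), with a log2 fold change of -0.44 (SE 0.46; exact permutation p = 0.403). Its direction depended on the slides. The REST minus CONT difference was -0.19 on slide 1, 0.29 on slide 2 and 0.12 on slide 3, and with slide as a block it was 0.08. The CRY2 values moved with the log2 signal of the negative control spots (r = 0.76 and rho = 0.66 over 12 cows, permutation p = 0.0042 and 0.0238, Benjamini-Hochberg adjusted 0.0441 and 0.217 over 63 relations). Without the 2 farthest cows r was 0.73, and after subtraction of slide means it was -0.05. The part of the background signal in the CRY2 values was not tested.

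CLOCK, the activator with acetyltransferase activity, ranged from -2.77 to -1.78 in CONT (median -2.48) and from -2.62 to -1.81 in REST (median -2.35). Its log2 fold change was 0.15 (SE 0.20, 95% interval -0.29 to 0.58; exact permutation p = 0.446). A second CLOCK probe, well above background on 4 arrays, gave 0.14 (SE 0.45). ARNTL, its dimer partner, was read by 1 probe and ranged from -3.16 to -1.39 in CONT (median -2.45) and from -3.12 to -2.28 in REST (median -2.60). The ARNTL log2 fold change was -0.26 (SE 0.27, 95% interval -0.85 to 0.33; exact permutation p = 0.422). Every REST cow lay within the CONT range for ARNTL, since CONT cow 8027 was the highest of the 12 and CONT cow 0015 the lowest.

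NR1D1, the repressor of ARNTL, ranged from -4.02 to -3.27 in CONT (median -3.70) and from -4.03 to -2.76 in REST (median -3.38). REST cows 0049, 1018 and 7043 were above every CONT cow, and REST cow 0078 was below all of them. The log2 fold change was 0.25 (SE 0.23, 95% interval -0.25 to 0.74; exact permutation p = 0.301), with 5 CONT and 5 REST arrays well above background. The second NR1D1 probe was well above background on 0 CONT arrays and 1 REST array, and no fold is given for it.

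NR1D2, its paralog, spread more widely in REST (SD 0.69) than in CONT (SD 0.34), and that difference in spread was not tested. Its brightest probe ranged from -2.41 to -1.44 in CONT (median -2.18) and from -2.84 to -0.77 in REST (median -1.65). The highest value was that of REST cow 0049 and the lowest that of REST cow 0078. The log2 fold change was 0.36 (SE 0.30, 95% interval -0.29 to 1.01; exact permutation p = 0.277). The other NR1D2 probes gave -0.21 (SE 0.28) and 0.37 (SE 0.40), each well above background on 10 arrays. The last of these, A_73_109757, fell with the log2 signal of the negative control spots (r = -0.80 and rho = -0.58 over 12 cows, permutation p = 0.00076 and 0.0515, adjusted 0.0239 and 0.232 over the 63 relations), with r of -0.57 without the 2 farthest cows and -0.34 after subtraction of slide means. The part of the background signal in these values was not tested. Within slides the NR1D2 difference was -0.64, 1.04 and -0.09 for slides 1, 2 and 3, so that its direction was not shared by the slides. Without REST cow 0078 the NR1D2 difference was 0.59, with an unadjusted limma p of 0.033.

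DBP, a transcription factor that is driven directly by CLOCK and ARNTL, ranged from 1.59 to 2.78 in CONT (median 2.29) and from 1.96 to 3.15 in REST (median 2.52). The log2 fold change was 0.26 (SE 0.25, 95% interval -0.30 to 0.81; exact permutation p = 0.346). The second DBP probe gave 0.21 (SE 0.21). Both DBP probes were well above background in every cow, yet their values followed each other weakly over the cows (r = 0.12).

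Taking slides into account brought 6 of the other 8 differences closer to 0 in the same direction. With slide as a block the log2 fold change was 0.14 for PER2, 0.03 for CLOCK, 0.07 for NR1D1, 0.08 for NR1D2 and 0.09 for DBP, with unadjusted limma p of 0.537 or higher. ARNTL was at -0.17, while CRY1 moved away from 0 to -0.12. On slides 1, 2 and 3 the REST minus CONT difference was -0.14, 0.48 and -0.17 for CLOCK, -0.27, 0.36 and 0.11 for NR1D1, and -0.31, 0.38 and 0.16 for DBP. These genes were higher in REST on slide 2, where 1 CONT cow was set against 3 REST cows, and lower on slide 1, where 3 CONT cows were set against 1. Leaving out 1 cow at a time moved the log2 fold change of ARNTL between -0.41 and -0.06, the latter without CONT cow 8027. The ranges were 0.15 to 0.35 for PER2, -0.65 to -0.16 for CRY2, 0.05 to 0.27 for CLOCK, 0.11 to 0.36 for NR1D1, 0.17 to 0.59 for NR1D2 and 0.12 to 0.37 for DBP, and none of these 7 genes changed direction.

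**Figure D3:**
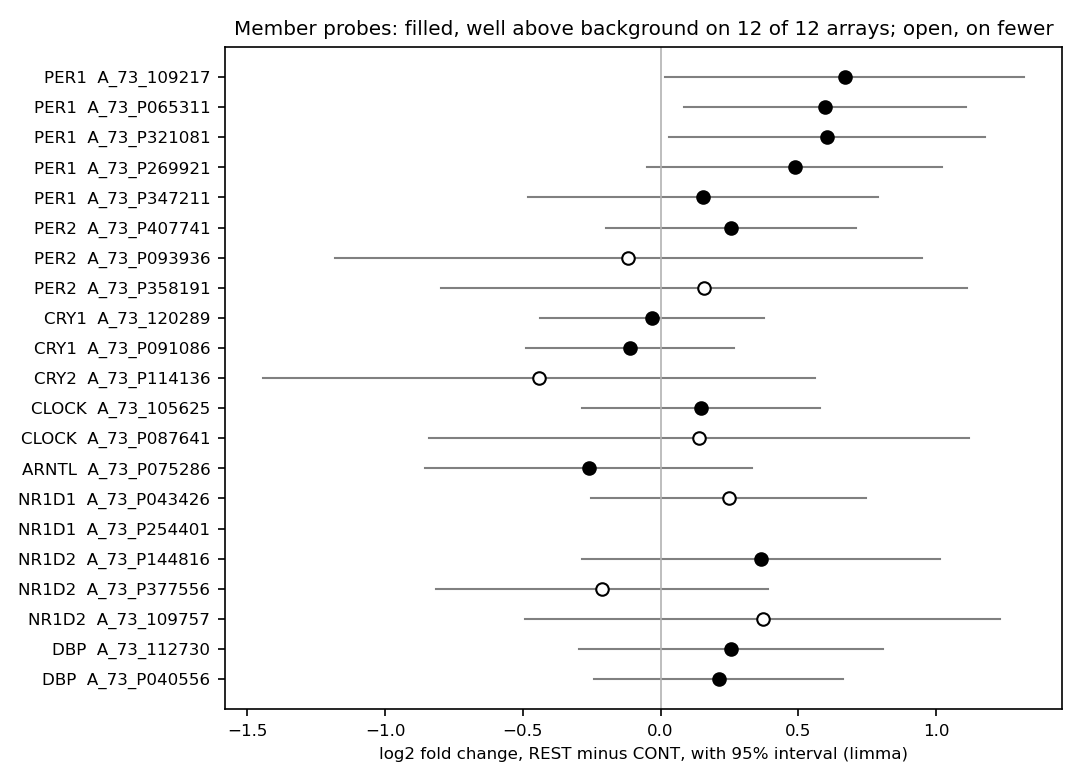
Log2 fold change (REST minus CONT) of the clock gene probes with the 95% interval of limma, for 6 cows per diet. The intervals of 3 PER1 probes lie above 0 and those of the other probes drawn include 0. No value is drawn for NR1D1 probe A_73_P254401, which was well above background on 1 array.

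The genes were also compared with each other over the 12 cows. ARNTL and the genes it drives peak at different times of day, so that their levels are known to run in opposite directions when animals are sampled around the clock. That background concerns driven genes such as PER1 and DBP, and not CLOCK, the partner of ARNTL. Each cow here gave a single biopsy, and the part of time of day in the correlations was not tested. Of the 36 pairs of the 9 genes, r lay between -0.84 and 0.71 and was above 0 in 21 pairs. A total of 6 pairs had an unadjusted permutation p under 0.05 by Pearson's r and 9 by Spearman's rho. After Benjamini-Hochberg adjustment over the 36 pairs, 1 pair passed by r and 0 by rho.

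That pair was ARNTL and CLOCK, the partners of the activating dimer, which ran in opposite directions. CONT cow 8027 had the highest ARNTL and the lowest CLOCK, and CONT cow 0015 with REST cows 0049 and 1015 had the lowest ARNTL and the highest CLOCK. Over the 12 cows r was -0.84 and rho -0.78 (permutation p = 0.00021 and 0.00386, adjusted 0.00756 and 0.128). The correlation was -0.83 without CONT cows 8027 and 0015, -0.84 within CONT, -0.85 within REST and -0.84 after subtraction of slide means. A slide held 4 arrays, too few for a value within each slide. With ARNTL, DBP had r = -0.71 and rho = -0.63 (permutation p = 0.00888 and 0.0319, adjusted 0.107 and 0.128). NR1D2 had r = -0.57 and rho = -0.55 with ARNTL (permutation p = 0.0548 and 0.071, adjusted 0.255 and 0.232). For the other genes r with ARNTL was -0.07 for PER1, 0.22 for PER2, 0.27 for CRY1, 0.20 for CRY2 and -0.14 for NR1D1, with adjusted permutation p of 0.634 or higher. The sign for CRY1 was not shared by rho (-0.27) or by the diets, with r of 0.74 within CONT and -0.92 within REST. NR1D1 had r of 0.45 within CONT and -0.59 within REST.

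**Figure D4:**
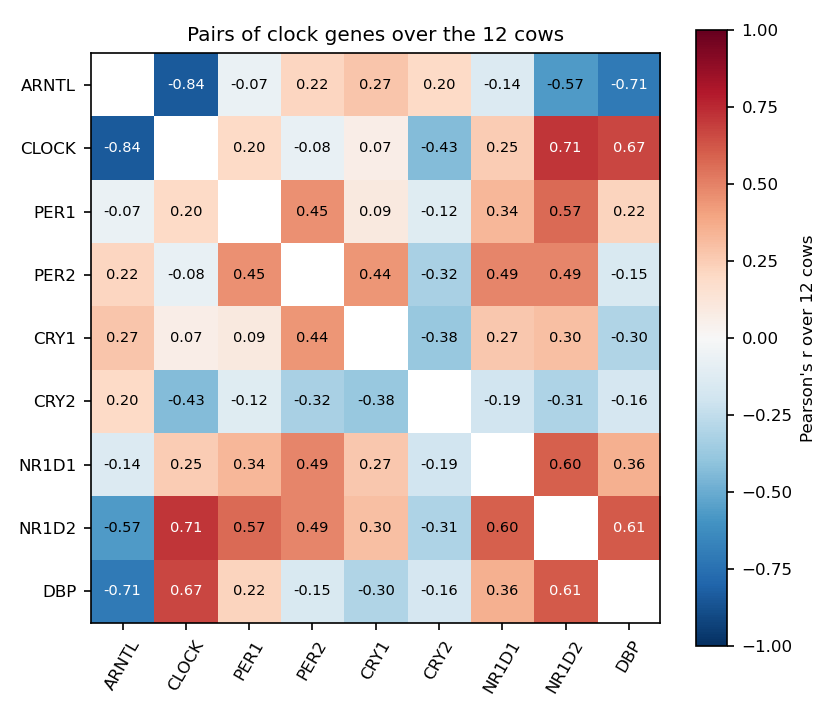
Pearson's r over 12 cows for the 36 pairs of clock genes, with the brightest probe of each gene. ARNTL is opposite to CLOCK (-0.84), DBP (-0.71) and NR1D2 (-0.57), and these 3 genes have r of 0.61 to 0.71 with each other.

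The brightest probes of the same 4 genes moved with the overall signal of the arrays. With the log2 of the 75th percentile, r was -0.93 for NR1D2, -0.81 for CLOCK, 0.77 for ARNTL and -0.77 for DBP, with rho of -0.85, -0.74, 0.72 and -0.63. The permutation p of r was 3e-05, 0.00142, 0.00309 and 0.00309, and that of rho 0.00086, 0.00754, 0.0108 and 0.0315. Over the 63 relations of clock probes with 3 array measures, these 4 had adjusted p of 0.00189, 0.0298, 0.0389 and 0.0389 by r and 0.0542, 0.217, 0.217 and 0.217 by rho. Without REST cows 0049 and 1015, whose arrays had the lowest 75th percentiles, r was -0.86, -0.72, 0.67 and -0.57, and after subtraction of slide means it was -0.91, -0.77, 0.81 and -0.68. Among the 8994 other genes that were well above background on all arrays, 0.122% lay as far from 0 as NR1D2, 3.92% as far as CLOCK, 6.48% as far as ARNTL and 6.53% as far as DBP. The second probes of DBP and CLOCK moved less with the 75th percentile, with r = -0.23 (rho = -0.27, permutation p = 0.479 and 0.406) and r = -0.24 (rho = -0.29, permutation p = 0.445 and 0.366). The other NR1D2 probes fell with it, at r = -0.73 for A_73_109757 (rho = -0.63, permutation p = 0.00637 and 0.033). For A_73_P377556 r was -0.62 (rho = -0.48, permutation p = 0.0312 and 0.122). Their adjusted p by r was 0.0573 and 0.164.

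With the 75th percentile removed by linear regression, a step added after the values were seen, ARNTL and CLOCK had r = -0.58, ARNTL and DBP -0.28, and ARNTL and NR1D2 0.61. The ARNTL and CLOCK value was -0.66 after quantile normalization, -0.11 after normexp background correction and -0.30 when the probes of each gene were averaged. The second probe of DBP had r = 0.28 with ARNTL (rho = 0.13, permutation p = 0.383 and 0.7), against -0.71 for the first. The second probe of CLOCK, well above background on 4 arrays, had r = -0.02 with ARNTL (rho = -0.24, permutation p = 0.961 and 0.457). The opposite course of ARNTL and CLOCK thus differed in size between settings and between probes, and the direction for ARNTL and DBP differed between probes. The part of array signal in it was not tested.

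**Figure D5:**
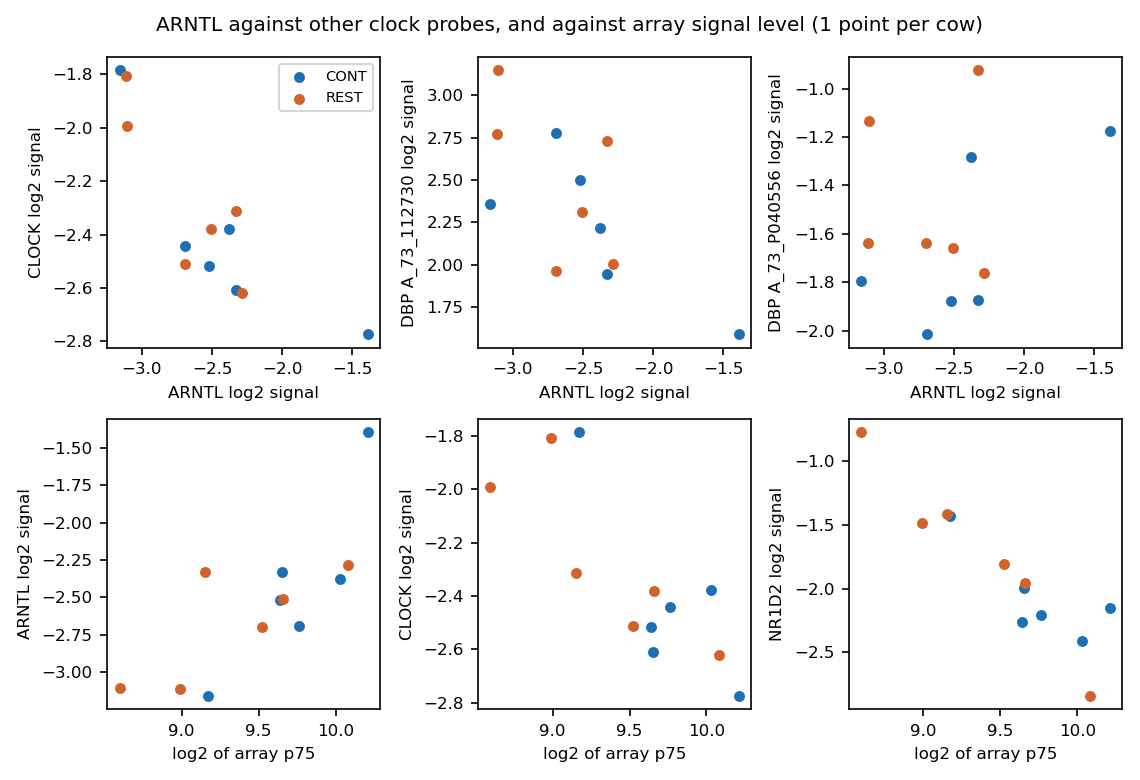
Top, log2 signal of CLOCK and of both DBP probes against that of ARNTL. Bottom, ARNTL, CLOCK and NR1D2 against the log2 of the array's 75th percentile (p75), with 1 point per cow. ARNTL falls as CLOCK rises (r = -0.84), while the DBP probes have r of -0.71 and 0.28 with ARNTL.

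The genes most like ARNTL over the 12 cows were DNAJB6 (r = 0.96), ARHGEF39, TMEM98, PYGL and ERI1 (0.93), among 8994 genes. The least like were KDR (r = -0.98), PRRC1, CCDC85A, RAMP2 and ADCY4 (-0.95). KDR and RAMP2 are known from vascular endothelium. CLOCK, at -0.84, was less extreme than these, and 2.67% of the 8994 genes lay as far from 0 with ARNTL as CLOCK did. That share was 16.9% for DBP and 36.0% for NR1D2. For DBP the most like were ABCC8 (r = 0.99), FAM181B, FOXH1, FBXL14 and CACNA1B (0.96), and the least like B4GALT3 (r = -0.96), TTC4, DIP2B, DOCK10 and TCF7 (-0.94). All 20 of these genes had r with the 75th percentile between 0.63 and 0.83 in size. By the same measure, applied to PER1 after its values were seen, FANCG (r = 0.90), CLCN7, SMARCD2, OCLN and FBXO6 (0.84) were most like it, and GEMIN6 (r = -0.92), RAMAC, CISD2, YARS1 and YRDC (-0.85) least like it.

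Some of the 7 lists of cell type markers moved with ARNTL as well, while the leukocyte list (r = 0.05, rho = 0.10, permutation p = 0.887 and 0.752) and the myoepithelial list (r = 0.16, rho = 0.24, permutation p = 0.57 and 0.456) passed no test. The summed level of the epithelial list had r = -0.82 with ARNTL, that of 4 adipose markers -0.88 and that of 3 erythrocyte markers -0.85, with rho of -0.71, -0.62 and -0.69. Their permutation p was 0.00108, 0.00055 and 0.00121 by r and 0.013, 0.0351 and 0.0154 by rho. After adjustment over 14 relations of ARNTL and PER1 with 7 lists, the 3 had 0.00565 each by r, and 0.0719, 0.123 and 0.0719 by rho. Without CONT cows 8027 and 0015 they were -0.69, -0.70 and -0.59, and after subtraction of slide means -0.83, -0.88 and -0.88. With the 75th percentile removed they were -0.46, -0.78 and -0.66. The fibroblast list ran the same way as ARNTL, at r = 0.66 and rho = 0.71 (permutation p = 0.0249 and 0.0134, adjusted 0.0873 and 0.0719), with 0.81 without the same cows, 0.93 within CONT, 0.81 within REST, 0.65 after subtraction of slide means and -0.20 with the 75th percentile removed. The endothelial list had r = -0.68 and rho = -0.17 with ARNTL (permutation p = 0.0375 and 0.589, adjusted 0.105 and 0.916). This correlation rested on CONT cows 8027 and 0015, without which it was -0.28, and it was -0.69 after subtraction of slide means. The summed epithelial level, on the linear scale with the 75th percentile as 1, was 964.0 to 2978 in CONT and 1343 to 3991 in REST. A sum on this scale leans most on the brightest probes of its list, so that it need not reflect every gene in it. REST was above CONT for 5 of the 7 epithelial genes, where 43.5% of the named genes were higher in REST. The log2 fold changes were 0.37 for CSN1S1, 0.35 for CSN3, 0.19 for LALBA and 0.35 for BTN1A1. EPCAM was at 0.01 (SE 0.15), and the keratins KRT8 and KRT18 were lower in REST, at -0.06 (SE 0.52) and -0.49 (SE 0.56). None of the 7 had an unadjusted limma p under 0.05. The adipose sum was 7.43 to 164 in CONT and 100.3 to 242 in REST, with 3 of 4 genes higher in REST. Of the adipose markers, FABP4 was well above background in all cows, PLIN1 in 1 CONT and 2 REST cows, LEP in 4 CONT and 1 REST cow, and CIDEC in 4 CONT and 5 REST cows. Of the erythrocyte markers, 1 of 3 was higher in REST, with a sum of 4.23 to 20.4 in CONT and 7.97 to 26.1 in REST, and HBA was the marker of this list read well above background in all cows. HBB was so in 1 CONT and 0 REST cows, and ALAS2 in none. The part of cell composition in the ARNTL values was not tested.

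PER1 passed with none of the 7 lists. Its closest was the fibroblast list, at r = -0.56 (rho = -0.45, permutation p = 0.0531 and 0.149, adjusted 0.124 and 0.418). All 5 fibroblast markers, among them COL1A1 and LUM, were lower in REST (median log2 fold change -0.65), where 43.5% of the named genes were higher. Of the 5 markers, 3 had an unadjusted limma p under 0.05, against 2.64% of the named genes. The summed fibroblast level was 48.5 to 66.0 in CONT and 22.5 to 67.2 in REST. Without REST cows 1058 and 0049 the correlation with PER1 was -0.23. The part of the fibroblast share in the PER1 difference was not tested.

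The wider clock pathway was read through a list of 30 further genes, of which 29 were matched to a probe and CIART was not. TEF and ARNTL2 were at background in every cow, so that 27 genes were counted. Of these, 17 were higher and 10 lower in REST, with a median log2 fold change of 0.09, against 43.5% higher and a median of -0.03 over the named genes. None passed the limma test after adjustment by Westfall-Young or Benjamini-Hochberg, and 1 gene, against 2.64% of the named genes, had an unadjusted p under 0.05. That gene was USP2, a deubiquitinase that follows the clock in many tissues, at 0.76 (SE 0.31, exact permutation p = 0.0455), but its probe was well above background in 1 CONT and 3 REST cows. Over all 83 probes of the matched genes, 4 had an unadjusted p under 0.05, where the share over all probes of the array was 2.62%.

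Among the activators of this list, NPAS2, which can replace CLOCK, had a log2 fold change of 0.05 (SE 0.43). The nuclear receptor RORA, which activates ARNTL where NR1D1 represses it, was at 0.21 (SE 0.57). Among the repressors, NFIL3, which competes with DBP, was at 0.18 (SE 0.28), BHLHE40 at 0.18 (SE 0.37) and BHLHE41 at -0.08 (SE 0.45). None of these 5 had an unadjusted limma p under 0.05, and the SE values leave room for changes of the size of that of PER1.

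FKBP5 and TSC22D3, known targets of the glucocorticoid receptor as PER1 is, were taken from the list after their values were seen. Their log2 fold changes were 0.60 (SE 0.34) and 0.45 (SE 0.26), with unadjusted limma p of 0.103 and 0.114. Because they were picked in this way, their correlations with PER1 over the 12 cows are given as a description, with no test. FKBP5 had r = 0.60 but rho = 0.20 with PER1. That correlation rested on REST cows 1058 and 0049, without which r was -0.12, and it was -0.73 within CONT and 0.77 within REST. TSC22D3 had r = 0.64 and rho = 0.48 with PER1, and r was 0.54 without the same cows, 0.30 within CONT and 0.59 within REST. After subtraction of slide means r was 0.45 for TSC22D3 and 0.58 for FKBP5.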

How the data were processed

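Total RNA (100 ng per cow) was amplified, labeled with Cy3 and hybridized by the authors to one-color bovine Agilent arrays. The deposited values are spot intensities from Feature Extraction 11.0.1.1, background-corrected by the authors but not normalized between arrays. The deposited matrix holds the same intensities (largest difference 0). Conditions came from the labels, which name each cow as a biological replicate.

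Control spots were left out and outlier spots treated as missing. The 75th percentile of each array was subtracted from its log2 intensities, and repeated spots of 1 probe were replaced by their mean. Of 43653 probes, 26832 were named through RefSeq accessions (12639 genes). REST and CONT were compared over all probes with limma 3.58.1 (R 4.3.3), two-sided, with Westfall-Young adjustment over 100 splits of the cows and Benjamini-Hochberg beside it, at a threshold of 0.05. The brightest probe stood for a gene. Correlations used 100000 permutations (scipy 1.17.1). Python 3.11.15, numpy 2.4.6, pandas 2.3.3 and matplotlib 3.10.9 were also used. The scripts were tested on simulated data. The number of arrays limits the precision.

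The members and lists were chosen with earlier results of these data known. All members and their probes are named. From the list of 30 other clock genes, those with an unadjusted p under 0.05 or separate groups were named, with NPAS2, RORA, TEF, NFIL3, CIART, BHLHE40 and BHLHE41 whatever their values, and the 5 genes most and least like ARNTL and DBP. A further item of this rule is not reported here. ARNTL2, FKBP5, TSC22D3 and the genes like PER1 were added after their values were seen. Alternatives were Benjamini-Hochberg, quantile normalization, normexp (offset 50), the deposited matrix, a filter on dim probes, outlier spots kept, slide as a block, an intensity trend, the mean over probes, leaving out each cow and, added later, the 75th percentile as a covariate. Promoter motifs were not examined, because no promoter or genome sequences of the assembly of the array design were at hand. No positions are given, because the annotation used here belongs to another assembly than the array design. Lists of leukocyte and myoepithelial markers had 3 of 7 and 1 of 4 genes higher in REST, and that of endothelium 4 of 4 (median log2 fold change 0.46), where 43.5% of the named genes were higher. Of the 4 endothelial markers, 1 had an unadjusted limma p under 0.05 (VWF, 0.79, SE 0.30), against 2.64% of the named genes. The leukocyte and myoepithelial lists had 0 such genes.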

Additional observations from a re-analysis of the deposited data

Results flagged for a closer look

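Within each diet, the highest or lowest of the 6 cows was compared with the others for each of the 21 clock probes, as its gap to the nearest cow divided by the range of the group. Of the 42 groups, 2 exceeded Dixon's limit for 6 samples, where chance alone gives about 1 in 20, or 2.1 of 42. Both were CONT cow 8027, whose array had the highest 75th percentile (1184). For CRY1 (A_73_120289) the ratio was 0.666, with 0.16 in this cow and -0.82 to -0.49 in the other CONT cows. For PER1 probe A_73_P269921 the ratio was 0.644, with -2.05 against -2.58 to -2.39. Without this cow the CRY1 log2 fold change was 0.10.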

How the results depend on the processing

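No clock gene passed the adjusted test under any alternative. Over all genes, the filter on dim probes kept 26678 probes, of which 1 passed by Westfall-Young and 0 by Benjamini-Hochberg. Clock genes higher in REST, 6 of 9 in the analysis reported, numbered 4 with the 75th percentile as a covariate and 5 with the mean over probes. They numbered 7 with slide as a block and 6 to 7 when 1 cow was left out. The count of clock genes with an unadjusted limma p under 0.05, 1 in the analysis reported, was 0 with slide as a block, 0 with the 75th percentile as a covariate and 0 to 2 when 1 cow was left out (2 without REST cow 0078, PER1 and NR1D2). The count of pairs past the threshold, 1 of 36, was 0 with quantile normalization, normexp, the mean over probes and the covariate, and 0 to 3 when 1 cow was left out (3 without CONT cow 0015, 0 without CONT cow 8027 or REST cow 1015). With 1 cow left out, r of ARNTL and CLOCK was -0.87 to -0.81, and under the other 4 settings named it was -0.66, -0.11, -0.30 and -0.58. Differences that changed direction were CRY2 (0.078 with slide as a block), NR1D1 (-0.0083 with the mean over probes, 1 of which was well above background on 1 array) and, with the covariate, CLOCK (-0.093), ARNTL (0.075), NR1D2 (-0.092) and DBP (-0.049). CRY1 lay between -0.11 and 0.10 when 1 cow was left out. The r with ARNTL changed sign for PER1 (0.019 with quantile normalization, 0.022 with slide means subtracted, 0.49 with the covariate), NR1D1 (0.21 with normexp, 0.074 with slide means subtracted, 0.44 with the covariate), CRY2 (-0.10 with the covariate) and NR1D2 (0.61 with the covariate). When 1 cow was left out, r with ARNTL lay between -0.15 and 0.15 for PER1, -0.0066 and 0.30 for PER2, -0.70 and 0.49 for CRY1, -0.031 and 0.41 for CRY2 and -0.29 and 0.13 for NR1D1. The cause was not tested. CRY2 and NR1D1 gave no value under the filter on dim probes, since neither was well above background on every array of a diet. No paired analysis was possible because the labels give no replicate numbers that link cows of the 2 diets.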
